A study of Homo sapiens with 8 samples.

Results

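The 9 genes of the MYC, MAX and MXD family were followed across 4 human neuroblastoma cell lines, each treated with the iron-chelating antifungal ciclopirox or with vehicle. A member was any gene named MYC, MYCN, MYCL, MAX, MXD1, MXI1, MXD3, MXD4 or MNT, measured by a probe set that the array's annotation ties to that symbol alone. All 9 were found among the 19774 genes of the array, through 29 probe sets, and each gene is represented by the probe set with the highest mean over the 8 arrays. The 4 ciclopirox samples had received 2.5 µM for 48 h and the 4 vehicle samples vehicle for 48 h, with 1 array per line and treatment. The lines were SKNAS/shHIF1a, named for SKNAS and a short hairpin RNA against HIF1A, then SKNAS, SKNBE2 and NB1691. The labels give SKNAS a c-Myc status and SKNAS/shHIF1a, SKNBE2 and NB1691 an N-Myc status. They do not say whether SKNAS/shHIF1a is 1 clone or a pool, or whether any arrays came from separate cultures, so the p-values measure the spread between these samples. By its name SKNAS/shHIF1a derives from SKNAS. Where n counts 4 lines, or 2 lines each, that pair is therefore not 2 independent lines.

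MYC, MYCN and MYCL encode the c-Myc, N-Myc and L-Myc transcription factors, which bind DNA as pairs with the partner protein MAX and activate genes for growth and ribosome production. The MXD proteins (MXD1, MXI1, MXD3 and MXD4) and MNT pair with the same partner, bind the same E-box sites and recruit SIN3 corepressors, so that they oppose MYC at shared targets. Amplification of MYCN is a hallmark of high-risk neuroblastoma, and lines without it can depend on MYC instead.

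Values are log2 signals, and the median of an array ranged over 3.47 to 3.52. All 9 members passed the filter on low levels, a mean over the 8 arrays of at least 3.21, and were tested among 14517 genes. HIF1A, the target of the hairpin, had log2 levels of 11.09 and 11.71 in SKNAS/shHIF1a under ciclopirox and vehicle, against 11.94 and 12.25 in SKNAS, a difference of -0.69 ± 0.21 (SE) that did not pass (limma, adjusted p = 0.257). Of 8 noradrenergic neuroblast markers tested, 3 were called lower and 0 higher in the SKNAS-derived lines than in the others under vehicle, where 1.67% of all genes were called. The noradrenaline-synthesis gene DBH lay at 4.37 to 5.72 in SKNAS/shHIF1a and SKNAS and at 9.97 to 10.90 in SKNBE2 and NB1691. The marker CHGA, not called, overlapped under vehicle, with 12.55 in SKNAS/shHIF1a and 12.42 in SKNBE2. Of 7 mesenchymal markers 1 was called higher by origin: YAP1, a transcriptional coactivator, lay at 8.45 to 8.90 in the SKNAS-derived pair, against 3.12 to 3.67 in the other lines. The receptor gene AXL instead separated SKNAS/shHIF1a (4.31 and 2.99 under ciclopirox and vehicle) from SKNAS (8.47 and 7.41), a difference of -4.29 (adjusted p = 0.00713). The leukocyte antigen PTPRC reached 6.34 to 11.53 in the SKNAS-derived lines and 3.03 to 3.29 in the others, whereas the leukocyte markers CD3E and CD14 lay between 2.57 and 3.35 on every array. CD68, the fourth leukocyte marker measured, lay at 3.06 to 4.45 in the SKNAS-derived lines and 2.93 to 5.38 in the others.

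MYC was the family member that separated the lines most sharply in one direction, and MYCN in the other. MYC had log2 levels of 9.23 under ciclopirox and 9.86 under vehicle in SKNAS/shHIF1a, and 9.10 and 10.16 in SKNAS. In SKNBE2 the levels were 3.28 under ciclopirox and 2.66 under vehicle, and in NB1691 3.28 and 2.70. The SKNAS-derived arrays thus lay far above the others without overlap, and the vehicle levels of SKNBE2 and NB1691 stood at percentiles 8.68 and 13.2 of their own arrays. A second MYC probe set, made to a different transcript record, stayed near the array background on all 8 arrays.

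MYCN showed the opposite order. Its levels in SKNBE2 were 12.53 under ciclopirox and 12.48 under vehicle, and in NB1691 11.77 and 12.05, all at or above percentile 98.9 of their arrays. SKNAS/shHIF1a had intermediate levels of 5.65 under ciclopirox and 5.41 under vehicle, and SKNAS had 3.36 and 2.77. SKNAS/shHIF1a, although labelled N-Myc, thus had MYC levels close to those of SKNAS and MYCN levels far below those of SKNBE2 and NB1691.

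**Figure D1:**
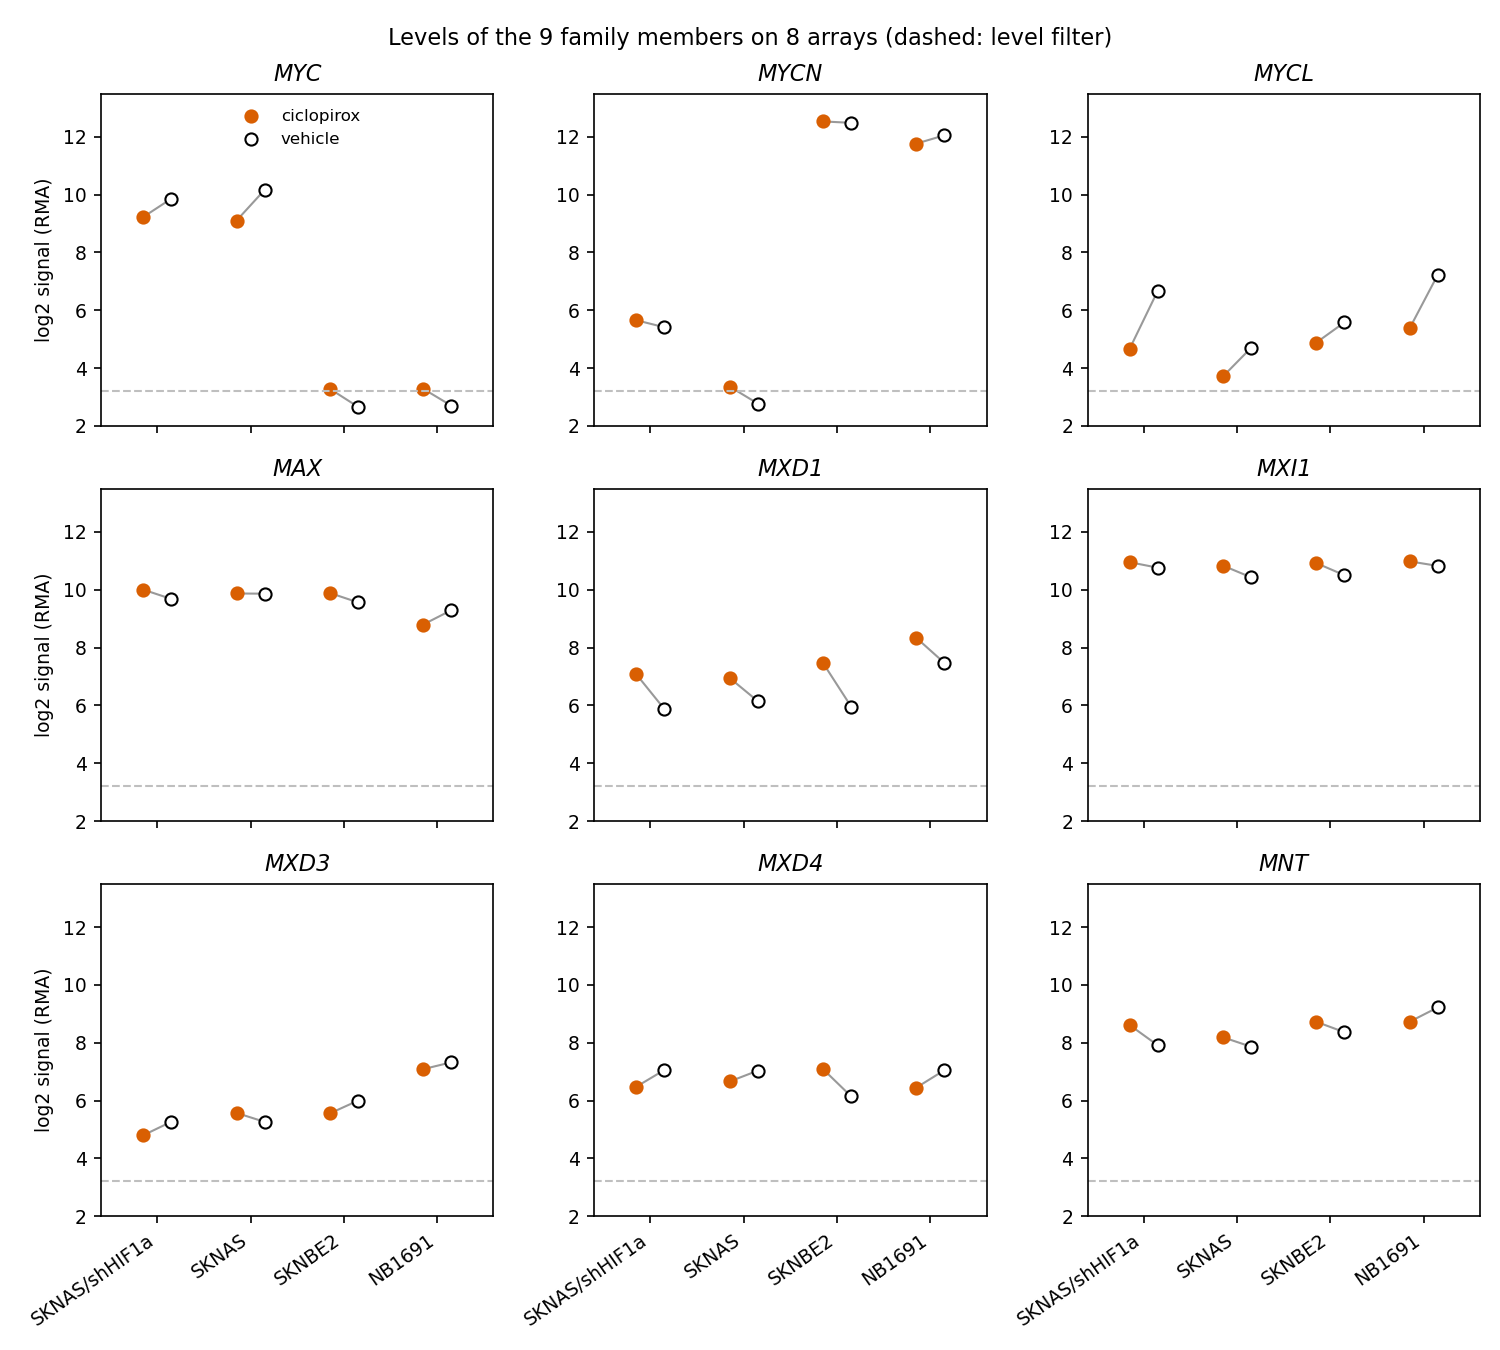
Log2 signal (RMA, vertical axis, same scale in each panel) of the 9 members in the 4 lines, with 1 filled point for ciclopirox and 1 open point for vehicle joined by a line; the dashed line marks the level filter of 3.21. MYC is high in SKNAS/shHIF1a and SKNAS, MYCN in SKNBE2 and NB1691, and MYCL lies lower and MXD1 higher under ciclopirox in each line.

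Between the SKNAS-derived lines and the other lines under vehicle, MYC averaged 10.01 against 2.68, a difference of 7.33 ± 0.22 (SE, n = 2 lines each) that passed over all 14517 genes (limma, adjusted p = 0.0158). MYC was the 1 member of 9 called in this comparison, in which 1.67% of all genes were called, and MYC and MYCN were the 2 members with an unadjusted p under 0.05 (20.4% of all genes). MYCN averaged 4.09 against 12.27, a difference of -8.18 ± 0.99 that did not pass (adjusted p = 0.063), and it passed on the ciclopirox arrays (adjusted p = 0.0352). The labels already set SKNAS (c-Myc) apart from SKNBE2 and NB1691 (N-Myc), so that part of these differences is not an independent finding. SKNAS/shHIF1a, labelled N-Myc, was grouped with SKNAS by origin, so the comparison cuts across the labels and does not check them. The shared origin also means that the SE rests partly on how close a line and its derivative lie. MYC and MYCN also cleared the level filter through the lines in which they are high. The MYC call ended without the vehicle array of SKNAS (adjusted p = 0.214) and without that of SKNAS/shHIF1a (adjusted p = 0.217). On all 8 arrays, 1 member lay above the other lines throughout in the SKNAS-derived lines (15.5% of all genes did) and 1 lay below (15.7%).

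The remaining members differed less by origin. MXD3, a repressor expressed in proliferating cells, averaged 5.26 against 6.66 under vehicle, and MNT, the broadly expressed repressor, 7.89 against 8.79. Their differences of -1.39 ± 0.52 and -0.91 ± 0.36 did not pass (adjusted p = 0.263 and 0.288). For MYCL, MAX, MXD1, MXI1 and MXD4 the differences lay between -0.72 and 0.45 and did not pass.

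SKNAS/shHIF1a and SKNAS were set against each other to ask which members differ with the hairpin line. MYCN averaged 5.53 in SKNAS/shHIF1a and 3.07 in SKNAS over both treatments. The difference of 2.47 ± 0.24 (SE, 2 arrays per line, 1 per treatment) passed (limma, adjusted p = 0.00928). MYCN was the 1 member of 9 called, against 1.58% of all genes. The lower of the SKNAS/shHIF1a levels was 5.41 and the higher of the SKNAS levels 3.36. On the linear scale the difference was 5.53-fold. The call ended without 3 of the 4 arrays: the adjusted p was 0.0508 without the ciclopirox array of SKNAS/shHIF1a, 0.064 without that of SKNAS and 0.0963 without the vehicle array of SKNAS. Without the vehicle array of SKNAS/shHIF1a it was 0.0466.

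The other MYCN probe sets did not share this difference. Those above the level filter numbered 3 and gave -0.10 ± 0.22, 0.06 ± 0.21 and -0.56 ± 0.18, at levels between 2.76 and 3.72 in SKNAS/shHIF1a and SKNAS. Those probe sets lay at 3.33 to 4.77 even in SKNBE2 and NB1691, where the brightest probe set lay at 11.77 to 12.53. With the mean of all MYCN probe sets in its place, the difference was 0.14 ± 0.13 (adjusted p = 0.799). The antisense gene at the same locus, MYCNOS, had levels of 4.21 and 4.81 in SKNAS/shHIF1a under ciclopirox and vehicle, against 3.64 and 3.66 in SKNAS. That difference of 0.86 ± 0.21 did not pass (adjusted p = 0.155). On a second, dimmer MYCNOS probe set the levels lay closer together, at 2.84 and 2.68 in SKNAS/shHIF1a against 2.58 and 2.42 in SKNAS. MYCN and MYCNOS overlap on opposite strands, so a probe set's tie to either rests on the array's annotation.

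MYCL was the other of 2 members with an unadjusted p under 0.05 in this comparison, against 12.1% of all genes. It averaged 5.67 in SKNAS/shHIF1a and 4.21 in SKNAS, a difference of 1.46 ± 0.35 that did not pass (adjusted p = 0.151). MYC itself differed by -0.09 ± 0.45, and the other 6 members by -0.39 to 0.24. With 1 hairpin line, the hairpin and other differences between the lines cannot be told apart.

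SKNBE2 and NB1691, both high in MYCN, differed in 2 of the family's 5 repressors, MXD3 and MXD1, while MXI1, MXD4 and MNT did not pass. MXD3 averaged 5.78 in SKNBE2 and 7.20 in NB1691, a difference of -1.43 ± 0.24 (SE, 2 arrays per line, 1 per treatment, limma, adjusted p = 0.00911). MXD1, the founding MXD repressor, averaged 6.71 in SKNBE2 and 7.90 in NB1691, a difference of -1.19 ± 0.22 (adjusted p = 0.0139). These were the 2 members of 9 called, and 25.1% of all genes were called in this comparison, so the members' share is near the background. At an unadjusted p under 0.05 the count was 5 of 9, against 37.9% of all genes. A second MXD1 probe set gave -0.35 ± 0.23 and did not pass (adjusted p = 0.339). The MXD1 call ended without the vehicle array of SKNBE2 (adjusted p = 0.0808) or of NB1691 (0.064), and the MXD3 call without the ciclopirox array of SKNBE2 (adjusted p = 0.0707).

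MAX, the shared partner, was higher in SKNBE2 than in NB1691 on each of its 5 probe sets. The brightest had levels of 9.89 and 9.57 in SKNBE2 under ciclopirox and vehicle, against 8.80 and 9.29 in NB1691. Its difference of 0.68 ± 0.25 did not pass (adjusted p = 0.0975), but 3 of the other 4 probe sets did when each probe set was tested alone, with differences of 1.27 ± 0.26, 0.85 ± 0.18 and 0.85 ± 0.21 (adjusted p = 0.0186, 0.023 and 0.0337). MYCN differed by 0.60 ± 0.24 (adjusted p = 0.124) and MYCL by -1.07 ± 0.35 (adjusted p = 0.0764).

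The central comparison of the study, ciclopirox against vehicle, gave its clearest values at opposite ends of the family: MYCL was lower and MXD1 higher in each of the 4 lines. No member passed over all genes: limma with the cell line as a block called 0 of 9, as it called 0% of all genes, and 3 of 9 members had an unadjusted p under 0.05, against 17.9% of all genes. MYCL, MXD1 and MXI1 are those 3. They are also the 3 members of 9 with the same sign in all 4 lines, 2 higher and 1 lower, where 11.8% of all genes were higher and 16% lower in all 4 lines, or 27.8% with either sign. The members' count is thus near the background. A change of at least 2-fold in all 4 lines was seen in 0 of 9 members and 0.165% of all genes.

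MXD1 had log2 levels of 7.07 under ciclopirox and 5.87 under vehicle in SKNAS/shHIF1a, 6.95 and 6.15 in SKNAS, 7.46 and 5.96 in SKNBE2, and 8.33 and 7.47 in NB1691. Within each line the ciclopirox array was the higher one, and between lines the treatments overlapped because NB1691 under vehicle was as high as SKNBE2 under ciclopirox. The mean change was 1.09 ± 0.16 (SE, n = 4 lines, adjusted p = 0.121), a 2.13-fold difference whose p ranked 47 among 14517 genes. A second MXD1 probe set gave larger changes, and its vehicle levels were more even between lines. It had 5.97, 5.81, 5.99 and 6.67 under ciclopirox in SKNAS/shHIF1a, SKNAS, SKNBE2 and NB1691, against 4.21, 4.23, 4.32 and 4.34 under vehicle. On that probe set the mean change was 1.84 ± 0.16 (adjusted p = 0.123 with each probe set tested alone). The third MXD1 probe set lay between 2.75 and 3.29, below the level filter on average, with a mean change of 0.02.

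MYCL, the family member first found in lung cancer, had levels of 4.67 under ciclopirox and 6.67 under vehicle in SKNAS/shHIF1a, 3.71 and 4.70 in SKNAS, 4.88 and 5.58 in SKNBE2, and 5.38 and 7.23 in NB1691. The changes were -2.00, -0.99, -0.70 and -1.84 in that order of lines, and the 2 lines with the highest vehicle levels, NB1691 and SKNAS/shHIF1a, had the most negative ones. The vehicle level is itself subtracted in each change, so the levels and the changes are not independent. The mean change was -1.38 ± 0.25 (SE, n = 4 lines, adjusted p = 0.139), and its p ranked 157. With lines left out 1 at a time the mean change lay between -1.61 and -1.18. The second MYCL probe set lay below the level filter on average, with levels of 2.79 to 3.89, and gave -0.11, 0.12, -0.66 and -0.47 in the same order.

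MXI1, a repressor gene known as a target of hypoxia-inducible factor, was higher under ciclopirox by 0.19 in SKNAS/shHIF1a, 0.40 in SKNAS, 0.42 in SKNBE2 and 0.16 in NB1691. Its levels were 10.84 to 10.98 under ciclopirox and 10.43 to 10.83 under vehicle. The lowest ciclopirox level, in SKNAS, thus lay almost at the highest vehicle level, in NB1691. The mean change of 0.29 ± 0.12 (SE, n = 4 lines) did not pass (adjusted p = 0.279). Its unadjusted p in limma was 0.0495, and 0.105 with SKNAS/shHIF1a and SKNAS averaged. In that averaged run 2 of 9 members had an unadjusted p under 0.05, as did 1663 of 14517 genes.

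**Figure D2:**
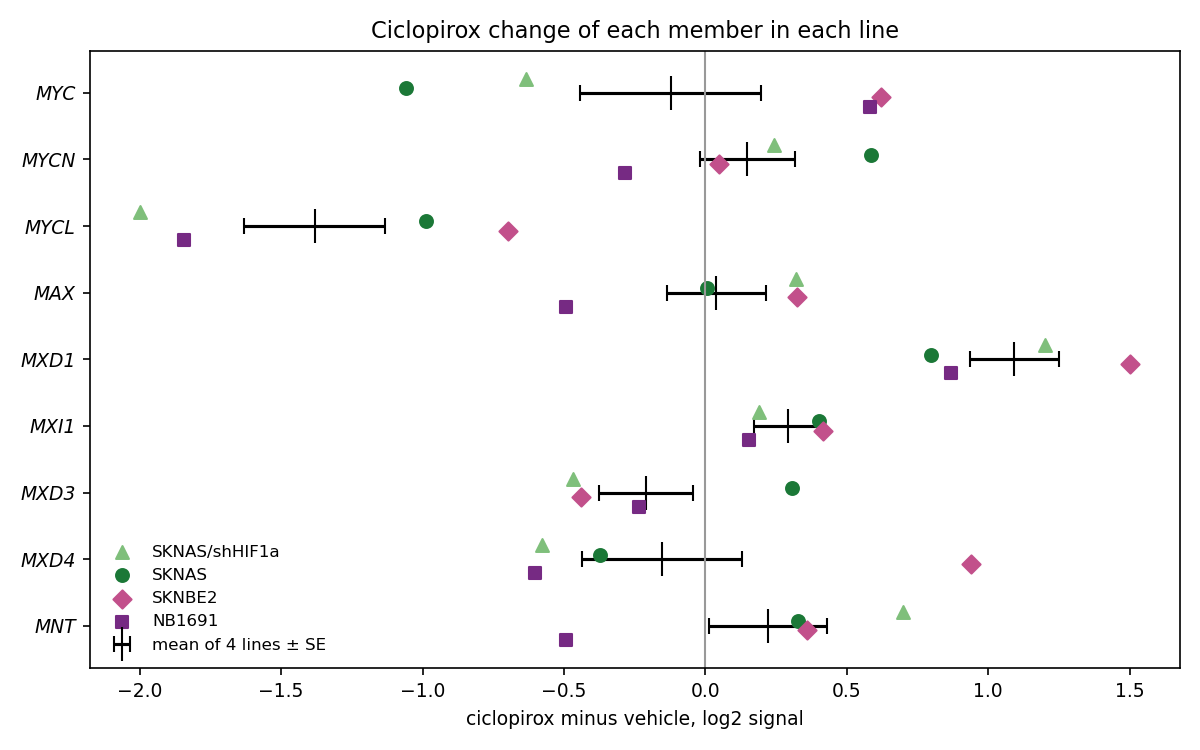
Ciclopirox minus vehicle change in log2 signal (horizontal axis) for each member (rows), with 1 symbol per line and the mean of 4 lines ± SE as a black bar. MXD1 and MXI1 lie right of 0 and MYCL left of 0 in every line, while MYC is split by line origin and MXD4 is positive in SKNBE2 alone.

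The promoter windows of MXD1, MYCL and MXI1 are given because these members had the same sign in each line, and those of MXD4 and MNT because they hold the E-box that the family itself binds. The sequences are from RefSeq (GRCh38.p14), the 250 bases before an annotated transcript start, and the capitals mark CACGTG (the E-box) or ACGTG (the core of a hypoxia response element, which also lies within CACGTG), on either strand. The windows are chr2:69914859-69915108 on the plus strand for MXD1, chr1:39901918-39902167 on the minus strand for MYCL, chr10:110209981-110210230 on the plus strand for MXI1, chr4:2262110-2262359 on the minus strand for MXD4 and chr17:2401061-2401310 on the minus strand for MNT.
MXD1: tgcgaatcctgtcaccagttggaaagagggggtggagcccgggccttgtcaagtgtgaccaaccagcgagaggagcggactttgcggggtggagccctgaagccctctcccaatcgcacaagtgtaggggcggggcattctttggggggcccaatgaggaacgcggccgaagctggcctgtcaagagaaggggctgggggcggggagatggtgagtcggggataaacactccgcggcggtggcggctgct
MYCL: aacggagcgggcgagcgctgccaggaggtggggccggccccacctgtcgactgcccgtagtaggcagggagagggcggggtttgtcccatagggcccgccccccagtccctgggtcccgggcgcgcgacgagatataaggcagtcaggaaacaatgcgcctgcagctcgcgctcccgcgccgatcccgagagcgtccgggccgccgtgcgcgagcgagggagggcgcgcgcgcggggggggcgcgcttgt
MXI1: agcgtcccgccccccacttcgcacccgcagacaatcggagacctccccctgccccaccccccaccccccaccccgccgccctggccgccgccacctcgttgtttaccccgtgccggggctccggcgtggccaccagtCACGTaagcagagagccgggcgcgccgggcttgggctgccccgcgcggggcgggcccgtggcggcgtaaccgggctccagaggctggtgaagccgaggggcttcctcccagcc
MXD4: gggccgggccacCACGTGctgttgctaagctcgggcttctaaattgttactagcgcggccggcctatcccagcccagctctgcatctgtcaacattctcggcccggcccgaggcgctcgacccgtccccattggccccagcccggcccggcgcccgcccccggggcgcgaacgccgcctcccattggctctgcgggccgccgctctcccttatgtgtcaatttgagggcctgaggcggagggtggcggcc
MNT: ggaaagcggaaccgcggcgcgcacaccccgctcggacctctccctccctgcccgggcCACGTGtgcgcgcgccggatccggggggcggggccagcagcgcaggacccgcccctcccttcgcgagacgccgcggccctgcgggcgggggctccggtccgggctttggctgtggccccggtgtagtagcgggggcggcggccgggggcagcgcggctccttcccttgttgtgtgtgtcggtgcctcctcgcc

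The table held 11 windows for 8 members. CACGTG was present in 2 of the 11, those of MXD4 and MNT, and in 6.34% of all 35116 promoter windows of that length. ACGTG was present in 4 of the 11, in MAX, MXI1, MXD4 and MNT, and in 18.5% of all windows. The MAX window with the match, chr14:65102284-65102533 on the minus strand, lies inside the annotated span of the gene, chr14:65006101-65102695. GCGTG, the other form of the hypoxia core, was present in 3 of the 11, in MXI1 and MXD3, and in 32.2% of all windows. MXI1 has 3 annotated starts, and the window shown, before the second of them, holds ACGTG on the opposite strand 113 bases before the start and GCGTG 127 bases before it. The other MXI1 windows hold no ACGTG, and the third holds GCGTG 131 bases before its start. MXD1 and MYCL held none of these letters in their windows. Such a match is a description of letters and not of binding.

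MYC had opposite signs by line origin. Its changes were -0.63 in SKNAS/shHIF1a and -1.06 in SKNAS, where it is abundant, and 0.62 in SKNBE2 and 0.58 in NB1691, where even the ciclopirox levels of 3.28 lay near background. The mean over the 4 lines was -0.12 ± 0.32 (SE, n = 4 lines, adjusted p = 0.868). The 2 SKNAS-derived changes averaged -0.85 and the other 2 averaged 0.60, a difference of -1.45 ± 0.26 (n = 2 lines each) that did not pass over all genes (limma on the 4 changes, adjusted p = 0.205, unadjusted p = 0.00212). This test called 0 of 9 members and 0.0344% of all genes, and MYC was the 1 member with an unadjusted p under 0.05, against 11.3% of all genes. An opposite sign in both pairs of lines, as for MYC, was found in 12.9% of all genes.

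MYCN did not share that pattern. Its changes were 0.24 in SKNAS/shHIF1a, 0.59 in SKNAS, 0.05 in SKNBE2 and -0.29 in NB1691, and their mean of 0.15 ± 0.17 did not pass (adjusted p = 0.68). MYCNOS had changes of -0.61 in SKNAS/shHIF1a, -0.02 in SKNAS, -0.64 in SKNBE2 and -0.55 in NB1691, with a mean of -0.45 ± 0.15 (adjusted p = 0.219). A second, dimmer MYCNOS probe set had changes of 0.16, 0.16, -0.73 and -0.83 in the same order of lines. Among the other MYCN neighbours on chromosome 2, DDX1, an RNA helicase gene, had a mean change of -0.29 ± 0.15 (adjusted p = 0.357).

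The remaining members gave small and uneven changes. MAX changed sign between lines, with 0.32 in SKNAS/shHIF1a, 0.01 in SKNAS, 0.32 in SKNBE2 and -0.49 in NB1691 and a mean of 0.04 ± 0.17. MNT had the same split, with -0.49 in NB1691 and 0.70, 0.33 and 0.36 in SKNAS/shHIF1a, SKNAS and SKNBE2 (mean 0.22 ± 0.21). MXD3 had 0.31 in SKNAS and -0.47, -0.44 and -0.24 in SKNAS/shHIF1a, SKNBE2 and NB1691 (mean -0.21 ± 0.17).

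MXD4, a repressor associated with differentiation and quiescence, was higher in SKNBE2 under ciclopirox and lower in the other 3 lines. Its levels were 7.08 under ciclopirox and 6.14 under vehicle in SKNBE2, against pairs of 6.48 and 7.06 in SKNAS/shHIF1a, 6.66 and 7.03 in SKNAS, and 6.45 and 7.05 in NB1691. On this probe set SKNBE2 had the highest level under ciclopirox and the lowest under vehicle. On the second MXD4 probe set SKNBE2 was the highest line under both treatments, with 7.27 under ciclopirox and 6.86 under vehicle, against 5.75 to 6.34 and 6.19 to 6.25 in the other lines. The positive change in SKNBE2 was 0.94 on the brightest probe set, 0.76 on the third and 0.41 on the second, on which NB1691 also had a positive change of 0.10. None of the 3 probe sets passed over the 4 lines, and with 1 array per treatment the change within SKNBE2 has no test.

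**Figure D3:**
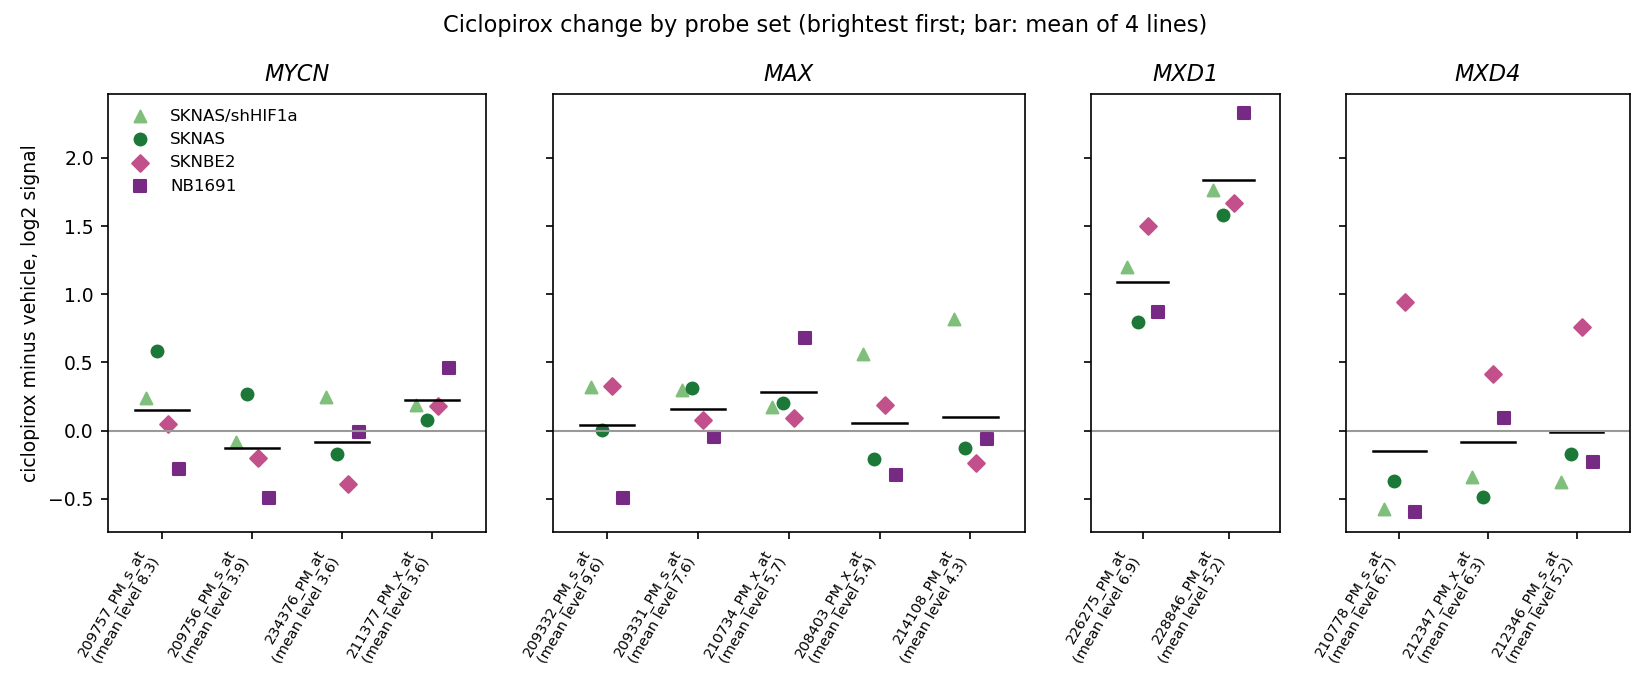
Ciclopirox minus vehicle change in log2 signal (vertical axis) for each probe set above the level filter of MYCN, MAX, MXD1 and MXD4, the members with more than 1 such probe set, ordered from brightest to dimmest, with 1 symbol per line and a bar at the mean of 4 lines. Both MXD1 probe sets are positive in each line, and SKNBE2 is positive on each MXD4 probe set.

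By line, differences of at least 2-fold were found for 2 of the 9 members in SKNAS/shHIF1a (MYCL and MXD1), where 9.83% of all genes reached that size. They numbered 1 in SKNAS (MYC, 4.99% of all genes), 1 in SKNBE2 (MXD1, 3.35%) and 1 in NB1691 (MYCL, 8.43%). The median change over the members was 0.19, 0.31, 0.36 and -0.29 in SKNAS/shHIF1a, SKNAS, SKNBE2 and NB1691, where that over all genes lay between -0.03 and -0.01. Of the 9 members 5, 6, 7 and 3 were higher under ciclopirox in the same order of lines, against 47.2%, 47.2%, 48.9% and 47.9% of all genes.

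Of the factors around the family, none passed over all genes, and the groups are given by their counts. The 4 other factors of the network (MLX, MLXIP, MLXIPL and MGA) had a median change of -0.04, and MLXIP, the glucose-sensing partner of MLX, had -1.11 in NB1691 and 0.44, 0.17 and 0.21 in SKNAS/shHIF1a, SKNAS and SKNBE2. Among 11 MYC cofactors the median was 0.01, and 1 was higher and 5 lower in all 4 lines, against 11.8% and 16% of all genes. RUVBL1, an ATPase of chromatin remodelling complexes, had -1.07, -0.92, -0.66 and -1.05 in SKNAS/shHIF1a, SKNAS, SKNBE2 and NB1691 (mean -0.93 ± 0.13, adjusted p = 0.121). ZBTB17, which encodes the MYC partner MIZ1, had 0.81, 0.35, 0.41 and 0.62 (mean 0.55 ± 0.13, adjusted p = 0.166).

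Among 4 MXD corepressors the median change was 0.12, with SIN3A at a mean of 0.33 ± 0.13 and HDAC2, a histone deacetylase, at -0.24 ± 0.14. Of 14 regulators of MYC protein turnover, 3 were higher and 4 lower in all 4 lines (11.8% and 16% of all genes), with a median of -0.04. The ubiquitin ligase gene FBXO32 had a mean change of 1.17 ± 0.29, with 2.11 in SKNAS/shHIF1a, 1.45 in SKNAS, 0.41 in SKNBE2 and 0.71 in NB1691 (adjusted p = 0.17). SKP2, another ubiquitin ligase component, had a mean change of -0.86 ± 0.31 (adjusted p = 0.24). KDM4B, the demethylase JMJD2B of the study's title, had a mean change of 0.33 ± 0.18 (adjusted p = 0.374).

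Genes that MYC activates were lower under ciclopirox more often than higher. Of 42 tested, 0 passed in limma over all genes, 14 were lower and 0 higher at an unadjusted p under 0.05, and 20 were lower in all 4 lines against 1 that was higher in all 4. Over all genes, 10.2% were lower and 7.67% higher at the same unadjusted level, and 16% were lower and 11.8% higher in all 4 lines. The list median was -0.26, against -0.01 over all genes, and by line it was -0.24 in SKNAS/shHIF1a, -0.35 in SKNAS, -0.10 in SKNBE2 and -0.17 in NB1691. NOP56, a ribosome assembly factor, had changes of -0.65, -0.52, -0.56 and -0.90 in that order of lines (mean -0.66 ± 0.12, adjusted p = 0.149). MRTO4, another ribosome assembly factor, had changes of -0.42, -0.56, -0.65 and -0.83 (mean -0.62 ± 0.12, adjusted p = 0.153). The lower values stood beside MYC changes of -0.63 in SKNAS/shHIF1a and -1.06 in SKNAS. In SKNBE2 and NB1691 they stood beside MYCN changes of 0.05 and -0.29. A link between the list and either gene was not tested.

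Genes that MYC represses had a median change of 0.47 over 13 tested, of which 0 passed in limma over all genes and 3 were higher and 1 lower at an unadjusted p under 0.05. In all 4 lines 3 were higher and 2 lower, against 11.8% and 16% of all genes. Without SKNAS the median was 0.19, without SKNAS/shHIF1a 0.26, and with averaged probe sets 0.18. By line it was 1.06 in SKNAS/shHIF1a, 0.78 in SKNAS, 0.22 in SKNBE2 and -0.20 in NB1691. CDKN1A, which encodes the cell-cycle inhibitor p21 and is also a p53 target, had a mean change of 2.28 ± 0.34. NDRG1, a stress gene that hypoxia also induces, had a mean change of 2.11 ± 0.34. The proliferation genes also varied by line: their median over 8 genes was -0.79 in SKNAS/shHIF1a, 0.03 in SKNAS, -0.26 in SKNBE2 and 0.32 in NB1691. Those with the largest mean changes were CCNB1, a mitotic cyclin (-0.65 ± 0.22), and MKI67, a marker of cycling cells (0.64 ± 0.29), and 0 of the 8 passed in limma (1 at an unadjusted p under 0.05). Their part in the family's changes was not tested.

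**Figure D4:**
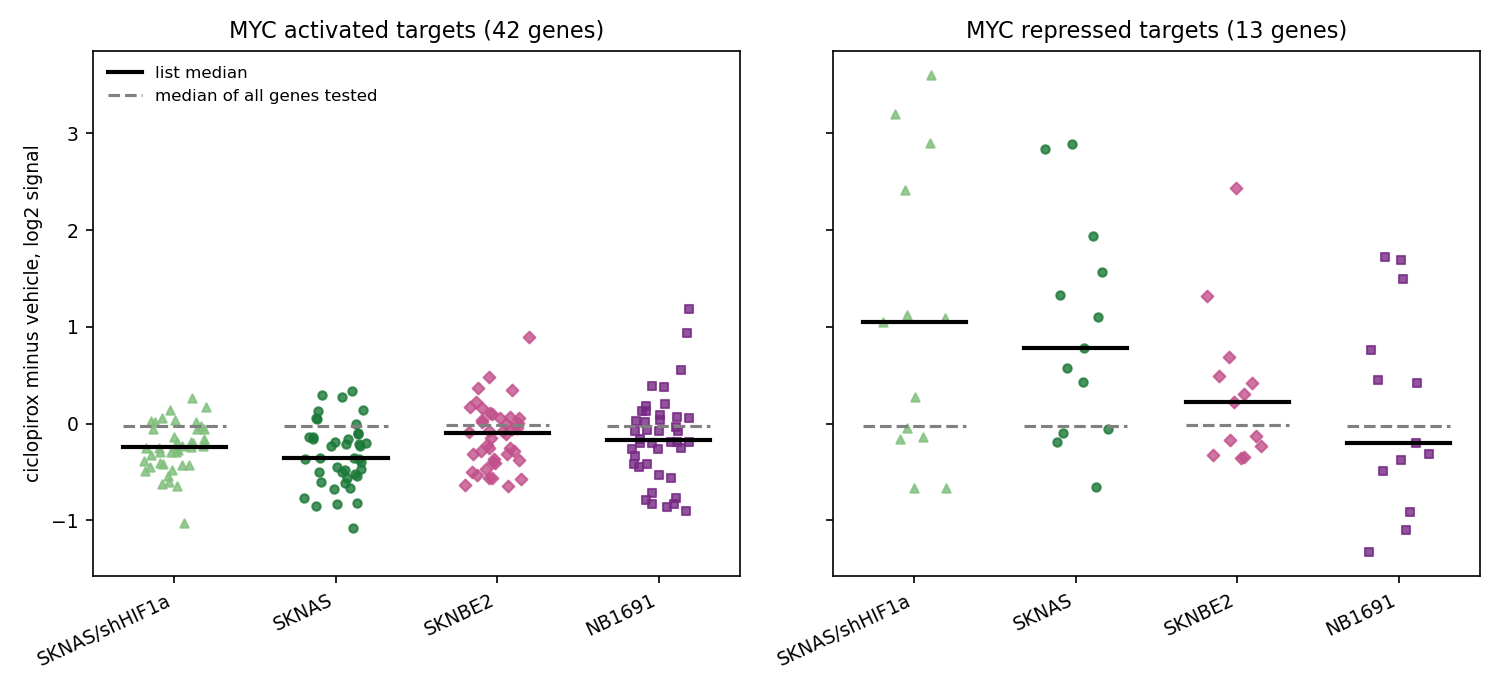
Ciclopirox minus vehicle change in log2 signal (vertical axis) of the tested genes that MYC activates (left, 42 genes) and represses (right, 13 genes) in each line, 1 point per gene, with a solid bar at the list median and a dashed bar at the median of all genes tested. The activated genes have medians below the dashed bar in each line, and the repressed genes have a median above it in 3 lines and below it in NB1691.

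Between SKNBE2 and NB1691, 12 of the 42 activated genes were called higher and 2 lower in SKNBE2, where 12.2% and 12.9% of all genes were called in these directions. The 2 lower ones, CDK4 (-1.69) and LDHA (-3.67), were named after their values were seen. None of the 42 was called between SKNAS/shHIF1a and SKNAS or by origin under vehicle. Of the 13 repressed genes, 1 was called higher and 5 lower in SKNBE2 than in NB1691. By origin under vehicle 2 of those 13 were called higher in the SKNAS-derived lines, where 1.67% of all genes were called. Between SKNAS/shHIF1a and SKNAS 0 of the 13 were called.

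The genes most like a member over the 8 arrays were listed for the 7 members whose range was at least 1 (65.5% of all genes), as a description of arrays that share 4 lines. MYC was closest to SPRY1, a feedback inhibitor of receptor tyrosine kinase signalling (Pearson r = 0.998 over 8 arrays), followed by FBXL13 (0.997) and SP110 (0.995). SPRY1 had levels of 10.01 and 10.59 under ciclopirox in SKNAS/shHIF1a and SKNAS, against 11.19 and 11.31 under vehicle, and stayed between 3.67 and 4.04 in SKNBE2 and NB1691. MYCN was closest to BEND4 (0.994), the neuronal vesicle gene NSG2 (0.992) and NKAIN1 (0.99). NSG2 had levels of 7.61 and 5.92 in SKNAS/shHIF1a under ciclopirox and vehicle, against 5.14 and 4.65 in SKNAS. These genes were picked for their likeness to MYCN on the same arrays. Their intermediate levels in SKNAS/shHIF1a thus follow from the choice and are no check on the MYCN difference.

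MXD3 was closest to NCAPD2, a condensin subunit gene of mitotic chromosomes (0.995), then DCAF7 (0.992) and the cytoskeletal linker EZR (0.988). MXD1 was closest to BRPF3 (0.983), ZNF555 (0.975) and KCTD16 (0.971), MAX to C7orf13 (0.989), LAP3 (0.978) and DDX52 (0.976), MNT to CKMT2-AS1 (0.975), COPG1 (0.967) and SRCIN1 (0.958), and MYCL to SANBR (0.973), EEF1AKMT2 (0.932) and HEBP2 (0.932). The 3 coefficients of each member are the highest of 9509 candidates over 8 arrays and carry no test.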

How the data were processed

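Total RNA from 8 samples was made into biotinylated cRNA and hybridised to Affymetrix arrays, per the labels' protocols. The deposited values are log2 signals that the authors made with RMA, per the submitters' processing notes; its software and version are not given in the sources used here. Of 54715 probe sets, 40920 carried exactly 1 symbol. A gene took the probe set with the highest mean, and genes whose mean reached percentile 40 of all probe sets (log2 3.21) were tested.

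Comparisons used limma 3.58.1 in R 4.3.3 with Benjamini-Hochberg adjustment over all genes and a threshold of 0.05. Arrays were paired by the labelled cell line (r of deviations from the group means 0.817 to 0.898 across genes), which was a block in the ciclopirox comparison, with 3 residual degrees of freedom. The contrasts of SKNAS/shHIF1a with SKNAS and of SKNBE2 with NB1691 came from the same fit. Their SE thus measures how unevenly the lines changed between treatments, not the spread between replicates of a line. Origin comparisons had 2 residual degrees of freedom. The fits were also run on simulated data with known changes and independent errors drawn from the fitted spread. Such data cannot show whether the p-values hold with related lines and 1 array per line and treatment.

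The members, gene lists and tests were chosen with earlier results of these data known. Named are the 9 members, HIF1A, KDM4B, MYCNOS, the 2 genes of each pathway list with the largest mean change where none passed, and the 3 genes most like each member. The cell type markers DBH, CHGA, YAP1, AXL, PTPRC, CD3E, CD14 and CD68, and CDK4 and LDHA, were named after their values were seen. Alternatives were other level filters, averaged probe sets, single probe sets, other normalization or variance settings, no block, and left-out lines or arrays.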

Additional observations from a re-analysis of the deposited data

Results flagged for a closer look

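MYC was lower under ciclopirox in both SKNAS-derived lines and higher in both other lines, with a difference of -1.45 between the means of the pairs. The difference was tested and did not pass over all genes (limma, adjusted p = 0.205). In SKNBE2 and NB1691 the MYC levels behind it lay between 2.66 and 3.28, near background.

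Among 27 sets of 4 arrays or 4 changes examined, 3 had 1 value far from the rest, and chance alone gives about 1 in 20. MXD4 accounts for 2 of them. Under vehicle, SKNBE2 lay below the other lines (6.14 against 7.03 to 7.06), a gap of 0.974 of the whole range, although on the second MXD4 probe set SKNBE2 lay above them (6.86 against 6.19 to 6.25). On the brightest probe set its ciclopirox change of 0.94 lay above theirs (-0.60 to -0.37), a gap of 0.852 of the range. MAX under ciclopirox was lowest in NB1691 (8.80, against 9.87 to 10.01 in the other lines), a gap of 0.89 of the range.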

How the results depend on the processing

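Ciclopirox minus vehicle called 0 genes and 0 members in limma in every alternative run, also with no replicate block for the cell line (0 genes, 451 at an unadjusted p under 0.05). MYCL, MXD1 and MXI1 each had the same sign in all 4 lines, so leaving a line out could not turn the sign of their means. Signs turned for small changes: MYCN had -0.0080 with averaged probe sets and -0.13 and -0.082 on single probe sets, and averaging SKNAS/shHIF1a with SKNAS gave MYC 0.12 and MAX -0.0021. With lines left out, MYC ranged from -0.37 to 0.19 and MAX from -0.056 to 0.22, while MYCN ranged from 0.0020 to 0.29, MNT from 0.064 to 0.46 (highest without NB1691), MXD3 from -0.38 to -0.12 and MXD4 from -0.52 (without SKNBE2) to -0.0033, none of them called. The difference in response by origin called 5 genes, 9 with averaged probe sets and 0 to 0 with a line left out, and MYCN had -0.19 on a single probe set. Origin under vehicle called 243 genes, 665 on the ciclopirox arrays, 1775 with the line as a random block, and 0 to 1610 with an array left out; members called were 2 on the ciclopirox arrays, with the random block and with a filter at percentile 60, and 0 to 3 with an array left out. SKNAS/shHIF1a minus SKNAS called 230 genes, 393 with those 4 arrays alone and 23 to 162 with an array left out; members called were 0 with averaged probe sets and 0 to 1 with an array left out. There, MYCN had -0.10 and -0.56 on single probe sets, and MYC ranged from -0.72 to 0.53 with an array left out. SKNBE2 minus NB1691 called 3640 genes and 1659 to 2891 with an array left out; members called were 4 with averaged probe sets and 1 to 2 with an array left out, and MYC had 0.070 with averaged probe sets and -0.52 to 0.48 with an array left out. The causes were not tested. Where an array was left out, the lone array of a line was assumed to vary like the others. Levels near background limit what can be read from MYC in SKNBE2 and NB1691 and from MYCN in SKNAS.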
